A study of Homo sapiens with 2 samples.

Results

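The genes described are 8 members of cholesterol and fatty acid synthesis and its control, taken by symbol from the 33538 genes in the count tables: HMGCS1, SQLE, INSIG1, IDI1, FDFT1, SCD, FASN and CH25H. All 8 symbols were found, each once. UMIs were counted for 7 of them, and CH25H had 0 UMIs in the 7144 persister and 10751 parental barcodes deposited. RNA of single cells was sequenced from 2 libraries of the melanoma cell line A375, which is of human origin. In the CTL persister library were the A375 cells that survived 15 days together with cytotoxic T lymphocytes (CTLs) against NY-ESO-1, an antigen otherwise restricted to testis, in serum-containing medium with interleukin 2 and with CTLs renewed during that time. The parental library held untreated A375 cells, and the labels do not say whether their medium contained interleukin 2. Each condition had 1 library, so no difference between conditions could be tested. Every interval below covers counting error only and says nothing of how a second culture would differ.

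Cells make cholesterol from acetyl-CoA through mevalonate and squalene, and make fatty acids from the same starting unit. Both routes are controlled by the SREBP transcription factors, which are held in the endoplasmic reticulum by INSIG proteins when sterols are plentiful and are released, with the escort protein SCAP, when sterols are short. INSIG1 is itself a classical SREBP target. CH25H makes 25-hydroxycholesterol, an oxysterol that keeps SREBPs inactive, and is known as an interferon-induced gene in macrophages.

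Promoter sequence is shown for the members whose window is in the RefSeq table used here, because INSIG1 and the enzyme genes are known to share a regulator and INSIG1 lay on the other side of the comparison. Of the 8 members, 5 had a window, with 8 windows in all. The sequences run 5′ to 3′ on the gene's own strand (GRCh38.p14, RefSeq) and end before the first annotated base of the gene in GENCODE 29. Capitals mark the NF-Y box, read on either strand, which binds a factor that works beside SREBPs at sterol-controlled promoters.
INSIG1 (chr7:155297628-155297775, plus strand): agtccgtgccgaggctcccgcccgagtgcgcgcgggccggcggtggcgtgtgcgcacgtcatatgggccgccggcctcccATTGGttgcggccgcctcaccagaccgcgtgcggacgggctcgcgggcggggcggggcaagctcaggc
HMGCS1 (chr5:43313513-43313662, minus strand): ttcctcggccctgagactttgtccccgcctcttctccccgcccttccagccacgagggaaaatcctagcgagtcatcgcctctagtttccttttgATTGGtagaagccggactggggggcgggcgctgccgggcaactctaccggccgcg
IDI1 (chr10:1049171-1049369, minus strand): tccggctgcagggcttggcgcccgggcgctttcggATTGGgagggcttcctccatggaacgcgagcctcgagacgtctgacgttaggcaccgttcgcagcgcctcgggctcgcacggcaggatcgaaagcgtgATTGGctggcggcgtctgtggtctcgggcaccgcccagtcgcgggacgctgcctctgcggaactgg
SCD (chr10:100346983-100347123, plus strand): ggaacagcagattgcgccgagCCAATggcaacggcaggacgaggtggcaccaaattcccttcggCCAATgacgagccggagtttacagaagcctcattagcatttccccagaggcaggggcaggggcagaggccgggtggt
CH25H (chr10:89207318-89207567, minus strand): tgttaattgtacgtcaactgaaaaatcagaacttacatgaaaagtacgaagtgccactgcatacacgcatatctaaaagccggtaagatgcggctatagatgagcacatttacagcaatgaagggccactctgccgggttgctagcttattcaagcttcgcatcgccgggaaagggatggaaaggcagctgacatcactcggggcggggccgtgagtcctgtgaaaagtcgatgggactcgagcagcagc

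In the full windows, 250 bases before to 50 after the start, the NF-Y box (CCAAT) was found in 5 of the 8 member windows, belonging to 4 genes, against 34.6% of all 35116 windows. Its matches in the printed stretches overlapped no other motif searched. The Sp1 GC box (GGGCGG) was in all 8 member windows and in 45% of all windows, and the E-box CACGTG was in the INSIG1 window and in 7.26% of all windows. The sterol regulatory element core (TCACNCCAC), which 1.13% of all windows hold, matched in 0 member windows, so these letters are not within them. The same was true of the interferon-stimulated response element (3.57% of windows) and the gamma-activated site (TTCNNNGAA, 7.66%), CH25H included. All motifs were searched on both strands.

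A barcode counted as a cell if it had 500 genes or more, 1000 UMIs or more (distinct molecules counted), no more than 20% mitochondrially encoded UMIs and fewer than 3 of the 6 T cell markers CD2, CD3D, CD3E, CD52, PTPRC and TRAC. This left 6605 persister cells with 79546026 UMIs and 10630 parental cells with 88110998 UMIs, with medians of 11284 and 7590 UMIs per cell. Of the 16 melanoma markers, 11 reached 5 counts per 1000000 UMIs (CPM) in each library, among them SOX10 and MIA, while the pigment genes PMEL, MLANA, TYR, TYRP1 and DCT were all under 0.14 CPM, so the cells matched their label as melanoma cells without pigment genes. Together the 6 markers of T cells came to 6.24 CPM in persister and 2.87 CPM in parental cells, with CD2 at 0 in parental cells. The 10 myeloid markers summed to 26.4 CPM in persister and 12.1 CPM in parental cells, with TYROBP, FCGR3A and C1QA at 0 in both and FCER1G at 14.0 CPM in persister and 0.874 CPM in parental cells. The part of these markers' cells in the results was not tested, apart from the T cell RNA described at the end. The 10 fibroblast and endothelial markers summed to 2.25 CPM in persister and 3.81 CPM in parental cells. A total of 38 barcode sequences occurred in both libraries, 33 of them among the kept persister cells and 36 among the kept parental cells.

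Between the libraries, INSIG1 and most synthesis genes lay on opposite sides. INSIG1 was 2.68-fold higher in persister cells, while HMGCS1 and FASN were lower, with persister over parental ratios of 0.547 and 0.570. FDFT1, SCD and SQLE were also lower, with ratios between 0.750 and 0.834, IDI1 was within counting error, and CH25H was at 0. At least 2-fold higher was 1 of the 7 measured members, where 10.1% of the 9938 measured genes (5 CPM or more in either library) were, and at least 2-fold lower were 0, where 10.8% of measured genes were. The share of members past 2-fold was therefore near that of genes at large. The median log2 fold, on the log2(CPM + 1) scale, was -0.34 over the 7 members and -0.15 over all measured genes.

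**Figure D1:**
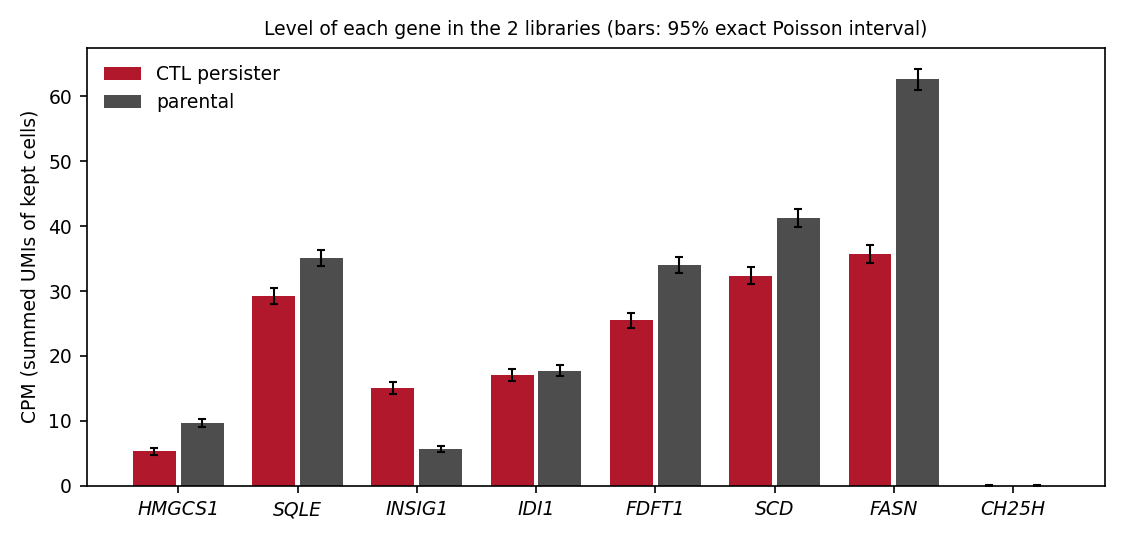
Level of each gene as summed UMIs per 1000000 UMIs (CPM) of all kept cells, in the CTL persister library (red) and the parental library (grey), with 95% exact Poisson intervals that cover counting error only. INSIG1 stands at 15.0 CPM in persister and 5.61 CPM in parental cells, FASN at 35.7 and 62.6 CPM, and CH25H at 0 in both.

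INSIG1 retains the SCAP and SREBP complex in the endoplasmic reticulum. Its gene lies on chromosome 7, 155297776 to 155310235, plus strand (GENCODE 29, GRCh38). It had 1197 UMIs in persister cells, or 15.0 CPM (14.2 to 15.9), against 494 UMIs in parental cells, or 5.61 CPM (5.12 to 6.12). The ratio was 2.68 (95% counting interval 2.41 to 2.99), and 6.84% of measured genes had a higher log2 fold. It was the member with the strongest difference, and the intervals of the libraries lay far apart.

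HMGCS1 encodes the cytosolic synthase that joins acetoacetyl-CoA and acetyl-CoA ahead of mevalonate (chromosome 5, 43289395 to 43313512, minus strand). It had 420 UMIs in persister cells, or 5.28 CPM (4.79 to 5.81), against 850 UMIs in parental cells, or 9.65 CPM (9.01 to 10.3). The ratio of 0.547 (0.486 to 0.616) placed it lower in persister cells, and 16.1% of measured genes had a lower log2 fold.

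IDI1 interconverts the isoprenoid building blocks made from mevalonate (chromosome 10, 1039152 to 1049170, minus strand). It had 1358 UMIs in persister cells, or 17.1 CPM (16.2 to 18.0), against 1560 UMIs in parental cells, or 17.7 CPM (16.8 to 18.6). The ratio of 0.964 (0.896 to 1.04) spans 1, and its side of 1 depended on scaling: with TMM it was 1.05. Over all cells the level therefore gave no direction. The level in MKI67-negative cells and the share of cells with a UMI at 5000 UMIs per cell are given further on. Both were lower in persister cells beyond counting error under the main settings. With TMM scaling the ratio in negative cells was 0.901, nearer 1 and without an interval, and at 3000 UMIs per cell the intervals of the shares overlapped.

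FDFT1 condenses farnesyl units into squalene, the first step given over to sterols (chromosome 8, 11795573 to 11839309, plus strand). It had 2026 UMIs in persister cells, or 25.5 CPM (24.4 to 26.6), against 2991 UMIs in parental cells, or 33.9 CPM (32.7 to 35.2), a ratio of 0.750 (0.709 to 0.794). SQLE, which oxidises squalene and is a rate-limiting step of the later pathway, is on chromosome 8, 124998497 to 125022283, plus strand. It had 2323 UMIs in persister cells, or 29.2 CPM (28.0 to 30.4), against 3086 UMIs in parental cells, or 35.0 CPM (33.8 to 36.3), a ratio of 0.834 (0.790 to 0.880). Both were lower in persister cells beyond counting error, but SQLE lay close to the bulk of the transcriptome, with 43.3% of measured genes having a lower log2 fold, against 33.8% for FDFT1.

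FASN is the multi-domain enzyme that builds palmitate (chromosome 17, 82078333 to 82098332, minus strand). It had 2840 UMIs in persister cells, or 35.7 CPM (34.4 to 37.0), against 5518 UMIs in parental cells, or 62.6 CPM (61.0 to 64.3), a ratio of 0.570 (0.545 to 0.597). Of measured genes, 14.9% had a lower log2 fold, the lowest place among the 7 detected members. SCD, which puts the double bond into stearate and palmitate, is on chromosome 10, 100347124 to 100364834, plus strand. It had 2575 UMIs in persister cells, or 32.4 CPM (31.1 to 33.6), against 3634 UMIs in parental cells, or 41.2 CPM (39.9 to 42.6), a ratio of 0.785 (0.746 to 0.826). Its difference was smaller than that of FASN, and 37.5% of measured genes had a lower log2 fold.

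Summed, the 6 enzyme genes HMGCS1, IDI1, FDFT1, SQLE, FASN and SCD stood at 145.1 CPM in persister and 200.2 CPM in parental cells, a ratio of 0.725 (0.708 to 0.742). INSIG1 lay on the other side of 1 from this sum.

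CH25H is a gene without introns on chromosome 10, 89205629 to 89207314, minus strand. It had 0 UMIs in 6605 persister and 0 in 10630 parental cells. A count of 0 allows up to 0.0377 CPM in persister and 0.0340 CPM in parental cells (3 UMIs of each total), and a share of cells with a UMI of up to 0.0454% and 0.0282%. IRF1, a transcription factor induced by interferon-gamma, stood at 946.7 CPM in the same persister cells and 17.0 CPM in parental cells. No fold is given for CH25H, since both libraries were at the floor, and its RNA was not detectable at this depth.

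**Figure D2:**
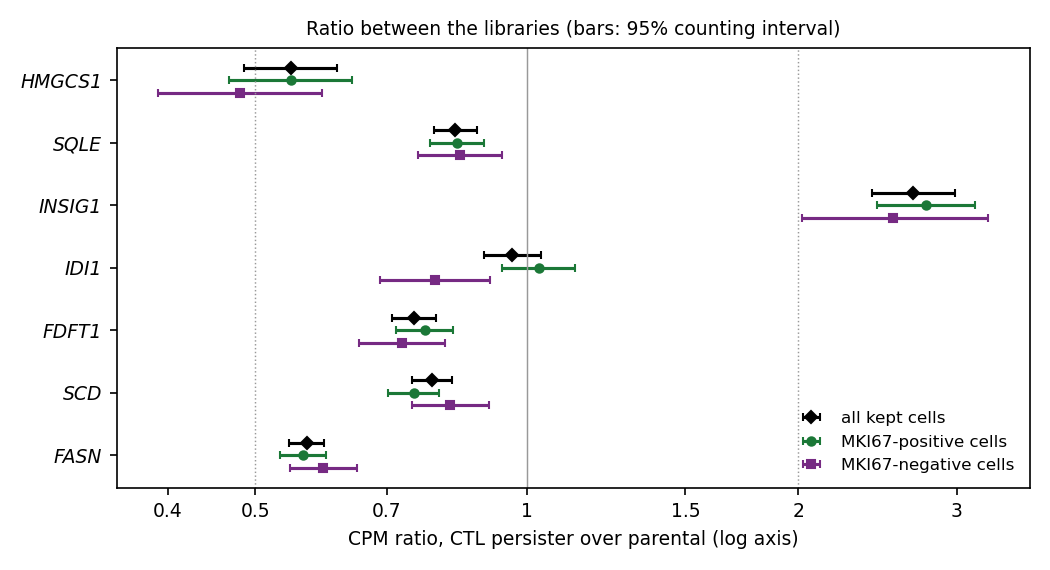
Ratio of CPM, CTL persister over parental, on a log axis for the 7 detected genes, in all kept cells (black), MKI67-positive cells (green) and MKI67-negative cells (purple), with 95% counting intervals. INSIG1 lies above 2 in all 3 sets of cells, IDI1 lies on either side of 1, and the other 5 genes lie below 1.

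Lists of both synthesis pathways, which hold the 6 enzyme members, were mostly lower. Of 21 cholesterol synthesis genes, 18 were measured, and 16 of these (88.9%) had a ratio below 1, against 59.4% of all measured genes. Without the members HMGCS1, IDI1, FDFT1 and SQLE it was 12 of 14 (85.7%). Lower by 2-fold or more were 5 and higher by as much 0, against 10.8% and 10.1% of measured genes, and the list's median was -0.63 on the log2 scale. With TMM scaling 3 were 2-fold lower. Among the 5 were MVK at 2.25 CPM in persister and 5.41 CPM in parental cells, MVD at 4.11 and 8.99 CPM, EBP at 35.8 and 72.9 CPM, and ACAT2 at 20.1 and 40.6 CPM. MVK and MVD reached 5 CPM only in parental cells, so they were measured only through the library where they were higher. At a minimum of 20 CPM, 3 genes were 2-fold lower. MVK and MVD are named because they belong to this count, as are NPC1 and SCARB1 below, so they were chosen after their values were seen. MSMO1, a sterol demethylating enzyme, had a ratio of 0.801 (0.703 to 0.911). LSS, which closes the sterol ring, was under 5 CPM in both libraries and so is not among the 18, with 3.52 CPM in persister and 4.79 CPM in parental cells.

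In the list of fatty acid synthesis and desaturation, 17 of 24 genes were measured, and 15 (88.2%) had a ratio below 1, against 59.4% of all measured genes. Without the members FASN and SCD it was 13 of 15 (86.7%). A ratio 2-fold lower was found for 1 gene, 0 with TMM scaling, and 2-fold higher for 0, against 10.8% and 10.1% of measured genes, so this count was not above that of genes at large. The median was -0.43. The lower gene was HACD3, which acts in the elongation of long chains, at 43.9 CPM in persister and 92.2 CPM in parental cells. HACD2, of the same family, had a ratio of 0.541 (0.496 to 0.590). ACACA, the carboxylase that commits acetyl-CoA to fatty acids, had 17.5 CPM in persister and 30.7 CPM in parental cells, a ratio of 0.569 (0.533 to 0.607).

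Genes of SREBP control and of sterol uptake were divided. Of the 12 measured control genes, 1 stood 2-fold or more higher, INSIG1, and 1 lower, SCAP, the SREBP escort, at 4.71 CPM in persister and 9.83 CPM in parental cells, with a list median of 0.07. Of all measured genes 10.1% were that much higher and 10.8% lower, so these counts were near the background. SCAP reached 5 CPM only in parental cells, the library where it was higher. It was no longer 2-fold lower with TMM scaling or without cells above the 95th percentile of UMIs (0 lower each). With TMM 2 genes were 2-fold higher. SREBF1, the gene of SREBP1, had a ratio of 1.43 (1.36 to 1.51), and SREBF2, the gene of SREBP2, one of 1.17 (1.04 to 1.31). TRIB1 had a ratio of 1.90 (1.69 to 2.14). Among 10 measured uptake and transport genes, 4 stood 2-fold or more higher and 1 lower, against 10.1% and 10.8% of measured genes, with a median of -0.15. At a minimum of 20 CPM, 1 was 2-fold higher. VLDLR, a lipoprotein receptor, had 9.11 CPM in persister and 1.71 CPM in parental cells, a ratio of 5.32 (4.46 to 6.38). STARD4, a sterol carrier, had 6.07 CPM in persister and 1.88 CPM in parental cells, a ratio of 3.22 (2.70 to 3.87). NPC1, which moves cholesterol out of lysosomes, had 15.2 CPM in persister and 6.42 CPM in parental cells, a ratio of 2.36 (2.14 to 2.61). The lower gene was SCARB1, a receptor for high-density lipoprotein, with 14.8 CPM in persister and 33.4 CPM in parental cells. VLDLR, STARD4 and NPC1 lay on the same side as INSIG1. VLDLR and STARD4 reached 5 CPM only in persister cells, so they were measured only through the library where they were higher. Their side is therefore no support for that of INSIG1.

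The list of oxysterol and LXR genes, the nuclear receptor branch that senses oxysterols, had 4 measured members of 14, CH25H not among them. ABCA1, the cholesterol exporter, had 8.57 CPM in persister and 2.61 CPM in parental cells, a ratio of 3.28 (2.82 to 3.83). It reached 5 CPM only in persister cells, the library where it was higher. LPCAT3, a phospholipid acyltransferase, had 5.91 CPM in persister and 12.8 CPM in parental cells, and NR1H3, the gene of LXR-alpha, had a ratio of 0.702 (0.620 to 0.795). The median over these 4 genes was -0.08, but its side of 0 depended on scaling, with 0.022 under TMM. Each setting applied the minimum CPM anew, so the genes behind a median could differ. With totals that leave out mitochondrial and ribosomal protein genes the list median was -0.46. At a minimum of 20 CPM it was 0.27, the value of NR1H2 alone (34.9 CPM in persister and 28.7 CPM in parental cells). Of 12 measured esterification and storage genes, 1 stood 2-fold or more higher and 1 lower, near the 10.1% and 10.8% of measured genes, with a median of -0.11. These were the fatty acid activating gene ACSL1, at 8.83 CPM in persister and 4.27 CPM in parental cells, and the lipid droplet coat gene PLIN3, at 22.1 and 47.5 CPM. ACSL1 reached 5 CPM only in persister cells, the library where it was higher. With TMM scaling 0 were 2-fold lower. NCEH1, a cholesteryl ester hydrolase, had a ratio of 0.603 (0.539 to 0.674).

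**Figure D3:**
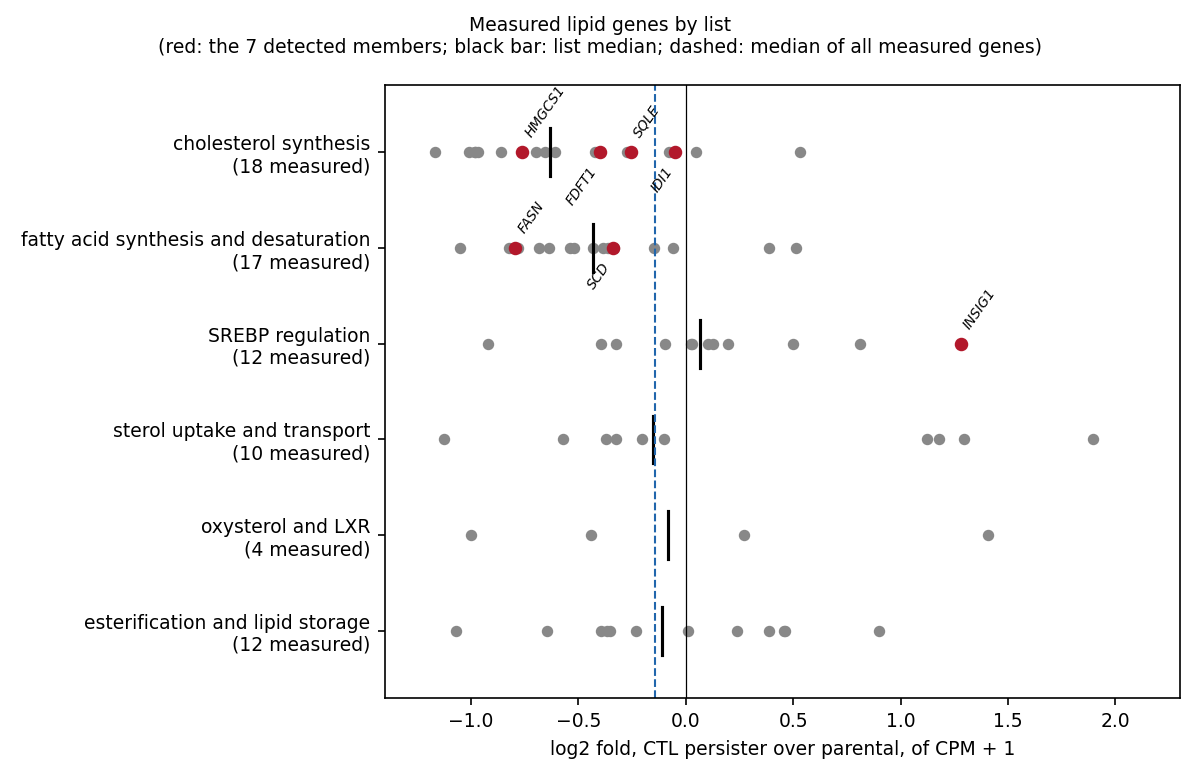
Log2 fold of CPM + 1, CTL persister over parental, for every measured gene of the 6 lipid lists (dots, with the 7 detected members in red and labelled), with each list's median (black bar) and the median of all measured genes at -0.15 (dashed). The medians of cholesterol synthesis (-0.63) and fatty acid synthesis (-0.43) lie left of the dashed line, while INSIG1 lies right of 1.

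Cells were then divided by MKI67, a marker of cycling cells. At least 1 MKI67 UMI was found in 2861 persister cells (43.3%) and 8286 parental cells (77.9%). Positive cells were deeper, with medians of 13900 UMIs in positive and 9904 UMIs in negative persister cells, and of 8217 and 6014 UMIs in positive and negative parental cells. The libraries therefore differed strongly in the share of positive cells, and levels are compared per UMI. Thinned to 5000 UMIs, 31.2% of persister and 69.8% of parental cells were positive. A cell without a MKI67 UMI can thus be a cycling cell in which none was counted. How far such cells brought the ratios between states nearer 1 was not tested.

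Within the persister library, the members hardly varied with MKI67 state. INSIG1 was 15.5 CPM in positive and 14.6 CPM in negative cells, a ratio of 1.06 (0.946 to 1.19), and FASN was 35.7 CPM in both, a ratio of 1.00 (0.929 to 1.08). HMGCS1, SQLE, IDI1 and FDFT1 had ratios between 0.932 and 1.07, all with intervals that span 1. SCD was the exception, at 30.9 CPM in positive and 34.0 CPM in negative persister cells, a ratio of 0.910 (0.842 to 0.984). In cells thinned to 5000 UMIs the SCD ratio was 0.902 (0.780 to 1.04).

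Within the parental library, SQLE, INSIG1, FDFT1, SCD and FASN had ratios of positive to negative cells between 0.976 and 1.05, with intervals that span 1. HMGCS1 was 9.31 CPM in positive and 11.4 CPM in negative cells, a ratio of 0.818 (0.689 to 0.976). IDI1 was 17.1 CPM in positive and 20.8 CPM in negative cells, a ratio of 0.821 (0.723 to 0.934). Thinned to 5000 UMIs, the HMGCS1 ratio was 0.806 (0.661 to 0.985) and the IDI1 ratio 0.944 (0.817 to 1.09), so the IDI1 difference was not detectable at matched depth. No member was 2-fold higher or lower by MKI67 state in either library. Of genes at large, 3.45% stood that much higher and 0.473% lower in positive persister cells, and 0.408% higher and 0.0942% lower in positive parental cells.

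Within a state, INSIG1 had a persister over parental ratio of 2.77 (2.44 to 3.14) in MKI67-positive and 2.55 (2.02 to 3.25) in MKI67-negative cells. FASN had ratios of 0.566 (0.533 to 0.600) and 0.595 (0.546 to 0.649), FDFT1 of 0.771 (0.717 to 0.828) and 0.727 (0.652 to 0.813), SCD of 0.749 (0.701 to 0.800) and 0.822 (0.746 to 0.908), and SQLE of 0.838 (0.782 to 0.897) and 0.843 (0.758 to 0.939). HMGCS1 was at 0.548 (0.468 to 0.641) in positive cells and 0.481 (0.390 to 0.594) in negative cells. The value in negative cells was past 2-fold, but with TMM scaling it was 0.548 and not past it. IDI1 had a ratio of 1.03 (0.940 to 1.13) in positive and 0.791 (0.689 to 0.911) in negative cells. With TMM scaling these were 1.11 and 0.901, without intervals. In positive cells, 1 of 7 members stood 2-fold or more higher and 0 lower, against 9.76% and 9.69% of measured genes. In negative cells, 1 was higher and 1, HMGCS1, lower, against 10.2% and 12.8%. ABCA1 had ratios of 2.73 (2.26 to 3.31) and 3.36 (2.46 to 4.68), and among persister cells it was lower in positive cells, at 6.87 CPM against 10.4 CPM in negative cells.

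**Figure D4:**
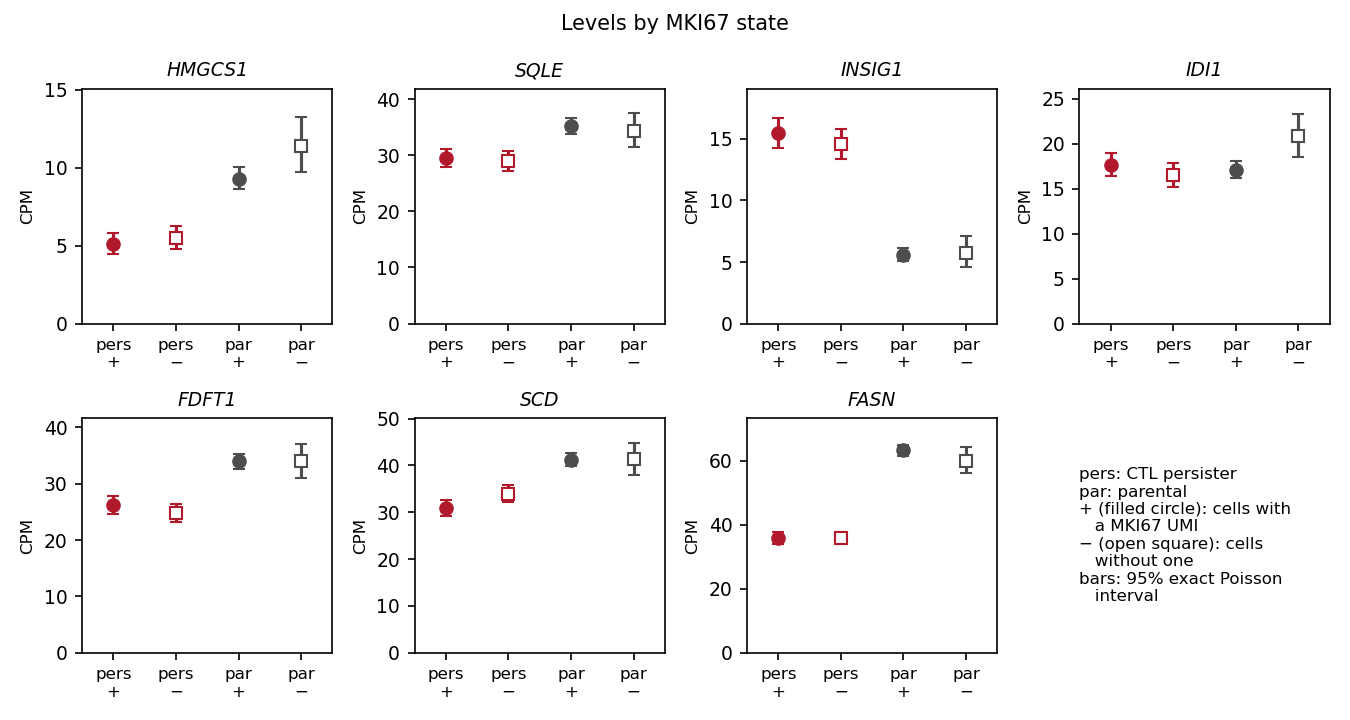
CPM of the 7 detected genes in persister (red) and parental (grey) cells with a MKI67 UMI (filled circles) and without one (open squares), with 95% exact Poisson intervals. The red and grey points separate for INSIG1 and FASN in both states, while the parental MKI67-negative IDI1 value (20.8 CPM) stands above the other 3 IDI1 values (16.5 to 17.6 CPM).

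The members were seen in a minority of cells. With each cell thinned to 5000 UMIs, which left 5897 persister and 9094 parental cells and set 708 and 1536 shallower cells aside, INSIG1 had a UMI in 6.82% of persister cells (6.19 to 7.49%) and 2.76% of parental cells (2.43 to 3.12%). FASN had one in 15.7% of persister cells (14.8 to 16.7%) and 26.2% of parental cells (25.3 to 27.1%). HMGCS1 was seen in 2.65% of persister cells (2.25 to 3.09%) and 4.79% of parental cells (4.36 to 5.25%). FDFT1 was seen in 11.3% of persister and 16.0% of parental cells, SCD in 13.9% and 17.9%, and SQLE in 13.7% and 15.4%. For these 6 genes the thinned shares lay on the same side as the CPM. IDI1 was seen in 7.46% of persister cells (6.80 to 8.16%) and 9.06% of parental cells (8.48 to 9.67%), so its shares differed beyond counting error where its CPM over all cells did not. Thinned to 3000 UMIs, the IDI1 shares were 4.75% (4.24 to 5.31%) in persister and 5.06% (4.65 to 5.51%) in parental cells, and the intervals overlapped.

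Without thinning, persister cells being deeper, INSIG1 was seen in 14.7% of persister and 4.50% of parental cells, and FASN in 31.8% and 38.0%. HMGCS1 was seen in 6.04% of persister and 7.52% of parental cells. SQLE was seen in 28.1% of persister and 24.1% of parental cells, IDI1 in 16.8% and 13.4%, SCD in 28.3% and 27.4%, and FDFT1 in 24.6% and 23.8%. The shares of SQLE, SCD and FDFT1 run against the CPM, those of IDI1 against its thinned shares, and no order is read from them.

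Counts per cell were too low for the spread over cells to be judged closely. At 5000 UMIs, the variance of UMIs over their mean, which is 1 for pure counting, lay between 0.999 and 1.18 in persister and between 1.01 and 1.06 in parental cells for the 7 genes. Their means were at most 0.306 UMIs per cell, and at such means this value lies near 1 even where cells differ. Without thinning, where depth also differs between cells, it lay between 1.04 and 1.37 in persister and between 1.02 and 1.18 in parental cells. The values that follow are again at 5000 UMIs unless another depth is named. INSIG1 had the highest value in persister cells, 1.18, against 1.02 in parental cells. This rank depended on depth. At 3000 UMIs, INSIG1 stood at 1.051 in persister cells and IDI1 at 1.095. Without thinning, INSIG1 stood at 1.32 in persister cells and SCD at 1.37, so no order of members is read from these values. At 5000 UMIs, 43 persister cells (0.729%) against 6 parental cells (0.0660%) held 2 or more INSIG1 UMIs. At least 3 of the 7 genes were seen together in 2.80% of persister and 5.31% of parental cells, and none of the 7 in 46.9% and 37.1%. Pearson's r between pairs of members across cells, over log-transformed thinned counts, ran from -0.01 to 0.03 over 5897 persister cells and from -0.01 to 0.03 over 9094 parental cells, with 21 pairs in each. These cells share a library and most counts are 0, so the values describe sparse counts, and no member was seen to follow another from cell to cell at this depth.

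The genes most alike to the summed UMIs of HMGCS1, SQLE, INSIG1, IDI1 and FDFT1, among genes at 20 CPM or more, also had r near 0. In persister cells these were KIF20B, EIF4B, ZFYVE16, RAB8B and DEPDC1, with r between 0.0462 and 0.0503 over 5253 genes. In parental cells they were MPHOSPH10, HLA-C, PPIB, SF3B1 and AHCYL1, with r between 0.0309 and 0.0461 over 5399 genes. The 2 sets held no gene in common, and values this small in sparse counts are no finding.

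**Figure D5:**
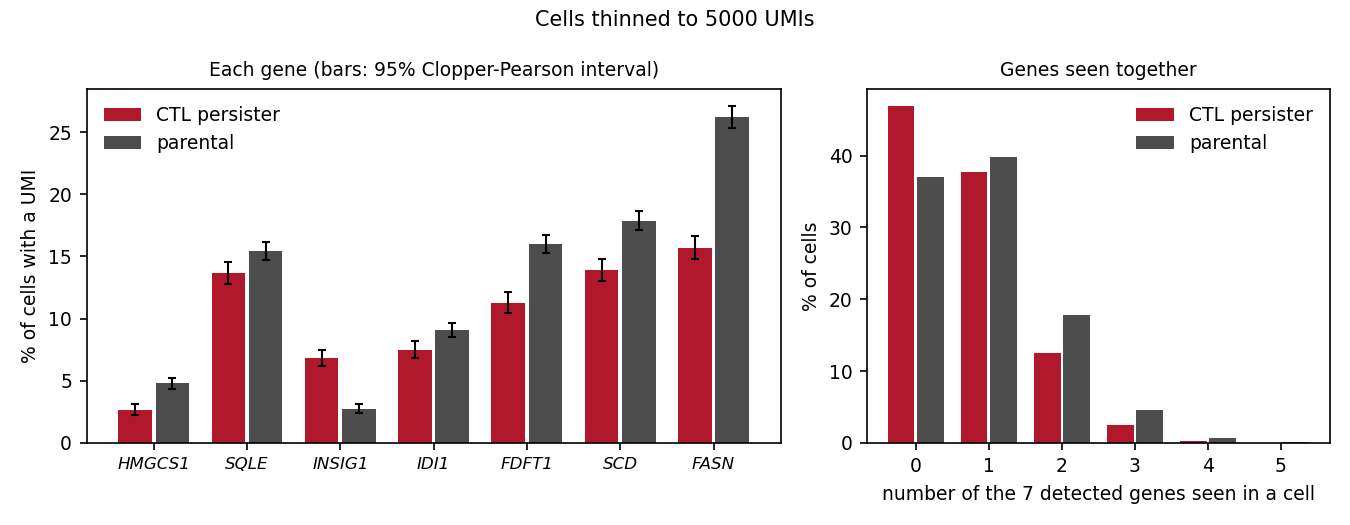
Left, percent of cells with a UMI of each detected gene after thinning to 5000 UMIs, with 95% Clopper-Pearson intervals, in CTL persister (red) and parental (grey) cells; right, percent of cells by the number of the 7 genes seen. INSIG1 is seen in more persister cells (6.82%) than parental cells (2.76%), and 46.9% of persister against 37.1% of parental cells show none of the 7.

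T cell markers were higher in the persister library, so values for T cell RNA are given here for each member. The 162 persister barcodes set aside for 3 or more T cell markers held 855182 UMIs, at a median of 3568 UMIs, and 2953 CPM of the 6 markers. Estimated from the markers left in kept cells, such RNA made up 0.114% of the UMIs summed for persister cells. The same 6 markers set the cell rule, so the rule itself limited how much of them kept cells could hold. The estimate and the values drawn from it are therefore no independent measure of T cell RNA. Given the levels in the set-aside barcodes, it would supply 0.124% of the INSIG1, 0.899% of the SQLE and 0.429% of the HMGCS1 level of persister cells, and at most 0.235% of the level of each of the other 4. Subtracting it left the INSIG1 ratio within its counting interval. SQLE had a UMI in 58.0% of the set-aside barcodes.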

How the data were processed

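The deposited matrices hold raw UMI counts (whole numbers, 1 per gene in a barcode), per the file headers, from 10x Chromium Single Cell 3' v3 libraries, per the labels' protocols. The submitters' processing notes name Cell Ranger 3.1.0 and GRCh38. Which annotation release was used, and the treatment of strand and of reads that fit several genes, are not given in the sources used here. HMGCS1, IDI1, FDFT1, STARD4, ABCA1, NPC1 and VLDLR overlap a counted gene on the opposite strand, and SCD has a processed pseudogene, SCDP1, so their counts are to that extent uncertain.

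From the deposited counts, UMIs of kept cells were summed per library and per MKI67 state and scaled to CPM. Intervals are 95% exact Poisson (levels), conditional binomial (ratios) and Clopper-Pearson (shares). With 1 library per group no test was run. UMIs are counted molecules, but intervals and the floor of 3 UMIs cover counting error only. Thinning drew 5000 UMIs per cell without replacement. No doublet was called or removed, and cells of very high UMIs were left out as an alternative. The fold and interval code was run on simulated sums that held counting error only, so that run says nothing of variation between cells or cultures. TMM factors are from edgeR 4.0.16, and other steps used Python 3.11.15, numpy 2.4.6 and scipy 1.17.1. Positions are from GENCODE 29, matched by gene ID.

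The members and lists were chosen with earlier results of these data known. Named genes are the members, the 3 measured genes with the greatest absolute log2 fold in a list, and fixed names (among them SREBF1, SREBF2, ACACA, LSS, MSMO1, ABCA1 and CH25H). Some genes that this rule names are not reported here. Alternatives tried were TMM scaling, totals without mitochondrial and ribosomal protein genes, stricter cell filters, other T cell marker and UMI limits, other measured minimums, other thinning depths and other MKI67 limits.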

Additional observations from a re-analysis of the deposited data

Results flagged for a closer look

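The 162 persister barcodes set aside for T cell markers lie outside the comparison, and 5 members stood there above their parental level by more than counting error. SQLE had 197 UMIs, or 230.4 CPM (199.3 to 264.9), 7.89 times its level in kept persister cells. FDFT1 was at 52.6 CPM (38.4 to 70.4), IDI1 at 33.9 CPM (22.7 to 48.7), HMGCS1 at 19.9 CPM (11.6 to 31.8) and INSIG1 at 16.4 CPM (8.95 to 27.5). INSIG1 stood there at 1.09 times its level in kept persister cells, within counting error. FASN, at 15.2 CPM (8.09 to 26.0), and SCD, at 22.2 CPM (13.4 to 34.7), were below their parental levels of 62.6 and 41.2 CPM.

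IDI1 differed in the sign of its MKI67 contrast between the libraries. The ratio of positive to negative cells was 1.07 (0.961 to 1.19) in persister and 0.821 (0.723 to 0.934) in parental cells, so the persister ratio was 1.30 times the parental one. With 1 library each, the difference was not tested. At a matched 5000 UMIs per cell the ratios were 1.06 (0.873 to 1.29) and 0.944 (0.817 to 1.09), and their intervals overlapped.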

How the results depend on the processing

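No paired analysis was possible because each group has 1 library, and for the same reason no library could be left out. Of 423 values recomputed for 70 results under alternatives, 76 moved beyond their counting interval, 1.5 times a count or 0.1 of a median log2 fold. These 76 include every share of cells recomputed at 3000 UMIs or without thinning, which has to change with depth. They also include the counts of all measured genes at another minimum, which change with the genes admitted. A change of direction was looked for only in member ratios between the libraries past 2-fold, and 0 were found. These were the INSIG1 ratios and the HMGCS1 ratio in MKI67-negative cells, so the 0 says nothing of the other results. TMM scaling put the median of all measured genes at -0.026 in place of -0.15 on the log2 scale, and the ratios to 0.904 for SQLE, 1.05 for IDI1, 0.813 for FDFT1, 0.851 for SCD and 0.618 for FASN. It moved the medians to -0.53 for cholesterol synthesis and -0.32 for fatty acid synthesis, and their counts at least 2-fold lower to 3 and 0. The median of cholesterol synthesis was -0.52 with totals that leave out mitochondrial and ribosomal protein genes, and at 20 CPM or more its lower count was 3. Each setting applied the minimum CPM anew, so the genes measured in a list could differ between settings. Counting genes with any UMI gave 4902 higher and 4844 lower genes and a median of -0.016, and a minimum of 20 CPM gave 578 and 595. INSIG1 was seen in 4.22% of persister and 1.69% of parental cells at 3000 UMIs, and in 14.7% and 4.50% unthinned. The IDI1 ratio of positive to negative parental cells was 0.944 in thinned cells. Over 7 alternatives the ratio of INSIG1 lay between 2.66 and 2.91, that of FASN between 0.570 and 0.618 and that of HMGCS1 between 0.539 and 0.593. Leaving out shared barcodes and subtracting T cell RNA were chosen after seeing the data. Depth limits what can be said per cell, since most cells had no UMI of a given member.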
